A study of Arabidopsis thaliana with 8 samples.

Results

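The genes described here are 3 CBF transcription factors and 7 cold-regulated (COR) genes of Arabidopsis thaliana, chosen by their gene identifiers from the 38088 distinct identifiers listed for each library. The 3 factors are CBF1 (AT4G25490), CBF2 (AT4G25470) and CBF3 (AT4G25480). The 7 COR genes are COR15A (AT2G42540), COR15B (AT2G42530), COR47 (AT1G20440), KIN1 (AT5G15960), KIN2 (AT5G15970), RD29A (AT5G52310) and COR413-PM1 (AT2G15970). All 10 were listed above 0 in every library. RNA was sequenced from rosette leaves of the wild-type accession Col-0 in 4 groups of 2 libraries, and the labels name no mutation or transgene.

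All plants spent 12 d on soil and 10 d in hydroponic culture with 1 µM copper sulfate, followed by a treatment of 10 d. Copper deficiency was medium with no copper sulfate and with 10 µM bathocuproine disulfonate, a chelator that binds copper. Iron deficiency was medium with no FeEDTA, the iron source, and with the copper supply kept at 1 µM. Double deficiency combined both changes, and control plants stayed on the complete medium. Leaves were collected 4 h after light onset. The age given in the labels is shorter than the sum of these periods, and the light and dark phases given add up to more than a day, so age and day length are uncertain. No group was kept in the cold. Whether the 2 libraries of each group stem from different cultures is not stated, so p-values measure the spread between these libraries, which may be technical.

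CBF factors (C-repeat binding factors, also called DREB1 proteins) are AP2/ERF transcription factors whose genes stand next to each other on chromosome 4. Chilling and the circadian clock raise their transcripts, and the proteins bind the C-repeat or dehydration-responsive element, with the core CCGAC, upstream of COR genes. COR genes encode mostly small hydrophilic proteins that protect membranes and proteins during freezing and drying. Several COR genes also respond to abscisic acid, the drought hormone, through the element with the core ACGTG. The comparison asked here is how leaf transcripts of this pathway stood after loss of copper, iron or both at growth temperature.

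The CCGAC core was searched on both strands in the 500 bases before each start codon, in the reference assembly TAIR10.1. No source used here names the build of the deposited values, but 99.93% of the identifiers found in this reference had the same start and end there, all 10 members among them. All 7 COR genes held at least 1 match and the 3 CBF genes held none, for 7 of 10 members and 11 matches, against 23.4% of 27394 nuclear protein-coding genes with a match. The 11 stretches are shown because they hold the element that CBF proteins are known to bind. Each is written 5′ to 3′ on the gene's strand with CCGAC in capitals and 8 bases on either side.
COR15A, site 1, chr2:17712397-17712417, minus strand: cttgttggCCGACatacattt
COR15A, site 2, chr2:17712220-17712240, minus strand: tttcatggCCGACctgctttt
COR15B, chr2:17710126-17710146, minus strand: cttgatggCCGACctcttttt
COR47, chr1:7085920-7085940, minus strand: ttcatctaCCGACttcaagaa
KIN1, chr5:5209806-5209826, plus strand: aatagctaCCGACataaggca
KIN2, chr5:5211773-5211793, plus strand: aaaagctaCCGACataaggca
RD29A, site 1, chr5:21240569-21240589, plus strand: gacatggaCCGACtactaata
RD29A, site 2, chr5:21240619-21240639, plus strand: atatcataCCGACatcagttt
RD29A, site 3, chr5:21240676-21240696, plus strand: atatactaCCGACatgagttc
RD29A, site 4, chr5:21240713-21240733, plus strand: agatcaagCCGACacagacac
COR413-PM1, chr2:6949670-6949690, plus strand: aatgtataCCGACatacccta

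RD29A held 4 of these matches and COR15A held 2, while the other 5 COR genes held 1 each. Of all nuclear coding genes, 4.48% held 2 or more. The matches of COR15B, COR47, KIN1 and KIN2, and 1 each of COR15A and RD29A, lay between the annotated gene start and the start codon. Whether these stretches belong to the spliced transcripts was not examined. When the window was the 250 bases before the annotated gene start, 3 of 10 members held a match, against 11.97% of coding genes. The other core, ACGTG, was found before the start codon of all 10 members, against 34.6% of coding genes. In 7 of the 10 it formed the palindrome CACGTG, which counts once on each strand as ACGTG, against 9.22% of coding genes. Such a match describes the letters and is not a measured binding site.

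The windows before RD29A and CBF2 are shown in full because these genes moved in opposite directions in double deficiency. The 250 bases before the annotated RD29A start, chr5:21240467-21240716 on the plus strand, hold 3 CCGAC matches (capitals). The 250 bases before the annotated CBF2 start, chr4:13016236-13016485 on the minus strand, hold no CCGAC and 1 CACGTG (capitals).
RD29A: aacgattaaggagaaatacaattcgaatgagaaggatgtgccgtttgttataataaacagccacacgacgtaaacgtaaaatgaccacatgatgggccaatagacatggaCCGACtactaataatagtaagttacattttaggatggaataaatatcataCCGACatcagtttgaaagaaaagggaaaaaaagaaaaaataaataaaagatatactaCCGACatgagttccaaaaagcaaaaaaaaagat
CBF2: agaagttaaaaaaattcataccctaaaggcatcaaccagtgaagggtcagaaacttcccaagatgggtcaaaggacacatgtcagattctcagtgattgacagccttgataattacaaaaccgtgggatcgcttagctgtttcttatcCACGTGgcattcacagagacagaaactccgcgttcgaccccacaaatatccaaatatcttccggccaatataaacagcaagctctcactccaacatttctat

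The deposited values are FPKM, fragment counts scaled to transcript length and to library size. Comparisons of levels between genes depend on the annotated lengths and on how reads were split between similar genes. No source used here gives the number of reads, and the depth relative to the deepest library, estimated from the bounds that accompany each value, was 0.735 to 1. Leaf markers were abundant in all 8 libraries but lower on average in the groups without iron. RBCS1A, the Rubisco small subunit, averaged 12586 ± 1609 FPKM in iron deficiency and 13631 ± 1141 FPKM in double deficiency, against 17727 ± 1473 FPKM in control (SD, n = 2 each). CAB2, a chlorophyll-binding protein, averaged 4018 ± 809 FPKM in iron deficiency and 3715 ± 178 FPKM in double deficiency, against 7025 ± 31.0 FPKM in control. RCA, Rubisco activase, averaged 4340 ± 534 FPKM in iron deficiency and 3609 ± 261 FPKM in double deficiency, against 5971 ± 8.78 FPKM in control. The guard cell marker MYB60 averaged 9.32 ± 0.372 FPKM in iron deficiency and 9.03 ± 0.0738 FPKM in double deficiency, against 5.95 ± 0.879 FPKM in control. The root marker PYK10 read 34.6 and 20.2 FPKM in iron deficiency and 43.9 and 26.3 FPKM in double deficiency, against 24.0 and 11.8 FPKM in control. Of the other root markers HB53 stayed under 0.68 FPKM, and GL2, also a trichome marker, was listed at 0 in all 8 libraries. The flower markers AP1, AP3 and AG did not pass 1.42 FPKM. The part of these shifts in the results below was not tested. Transcripts of 3 seed proteins, CRA1, OLEO1 and PAP85, stood at 3.63 to 6.13 FPKM in control 2 and at no more than 0.162 FPKM in the other 7 libraries. Calls of the described CBF and COR genes that change without control 2 are therefore given beside each result. For the gene lists further below such changes are given mainly as counts over all lists. Many list calls in iron deficiency were lost without control 2, and most of these are not named. Nuclear protein-coding genes took 69.1 and 75.3% of the FPKM in iron deficiency and 75.1 and 78.4% in double deficiency, against 85.9 and 82.6% in control. The copper-deficient pair was furthest apart, at 78.6 and 93.2%, and chloroplast genes took 11.2 and 0.278% there. In bulk leaves fewer cells of a type and less RNA per cell cannot be told apart.

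Transcript levels were compared with limma on log2(FPKM + 1) in 1 model of all 8 libraries, for 19171 gene entries with at least 1 FPKM in at least 2 libraries. A gene is called, and is said to rise or fall, where its p-value adjusted over all these entries by the method of Benjamini and Hochberg was under 0.05. CBF1 did not reach the minimum level, so 9 of the 10 genes were tested. Fold changes on this scale understate the change of low genes. The median log2 change of all tested entries was 0.01 in copper deficiency, 0.27 in iron deficiency and 0.41 in double deficiency, each against control, and the comparisons with control share the 2 control libraries.

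Copper deficiency left the pathway without a called change. Of the 9 genes tested, 0 rose and 0 fell, and 0 reached an unadjusted p under 0.05, where limma called 0.183% of all entries in either direction. The largest difference was in CBF2, at -0.22 ± 0.25 on the log2 scale (SE, adjusted p = 0.952), and the adjusted p of the 9 genes lay between 0.946 and 1. Copper and control libraries overlapped for all 10 genes. Most of all tested entries overlapped too, as 15.3% lay above both controls in both copper libraries and 14% below. KIN2, which encodes a small hydrophilic COR protein, averaged 642 ± 10.5 FPKM in copper deficiency and 653 ± 98.8 FPKM in control (SD, n = 2 each).

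In iron deficiency 5 COR genes fell and no CBF gene was called. The 5 were COR15A, COR15B, COR47, KIN2 and COR413-PM1, out of 9 tested, where 6.85% of all entries fell and 27.2% rose. The median of the 9 genes was -0.50, against 0.27 over all entries, and each of the 9 lay below that all-gene median. Both iron-deficient libraries lay below both controls for 6 of the 9, beside 17% of all entries. They lay above both controls for 0, beside 52.1%. The summed level of the 7 COR genes was 1032 and 1029 FPKM in iron deficiency, against 1708 and 1458 FPKM in control. The number of members called was 2 after rescaling to nuclear coding genes, and also 2 without iron 2 or without control 1 and 3 without iron 1, with COR15B and KIN2 called each time. With median-ratio scaling 6 members fell and 0 rose, where 14.5% of all entries fell and 14.6% rose. After rescaling to nuclear coding genes 5.03% of all entries fell and 41.1% rose.

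In double deficiency 5 COR genes fell and CBF2 rose. The genes that fell were COR15A, COR15B, KIN2, RD29A and COR413-PM1, where 5.99% of all entries fell and 39.2% rose. Both double-deficient libraries lay below both controls for 6 of the 9 tested genes, beside 13.4% of all entries. They lay above both controls for 2, beside 62.4%. With FPKM rescaled by median ratios or by quantiles, 0 members rose and 6 fell, COR47 being the sixth, and CBF2 was no longer called. Of all entries, 16.6% rose and 15.2% fell with median ratios, and 15.6% rose and 17.3% fell with quantiles. After rescaling to nuclear coding genes 1 member rose and 4 fell, with COR413-PM1 not called (-0.27, adjusted p = 0.112). Of all entries, 47.6% then rose and 5.15% fell. The summed COR level was 1013 and 1053 FPKM in double deficiency, against 1708 and 1458 FPKM in control. Sums in double and iron deficiency were thus close to each other, while COR15B and RD29A, at lower levels, stood further down in double deficiency.

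**Figure D1:**
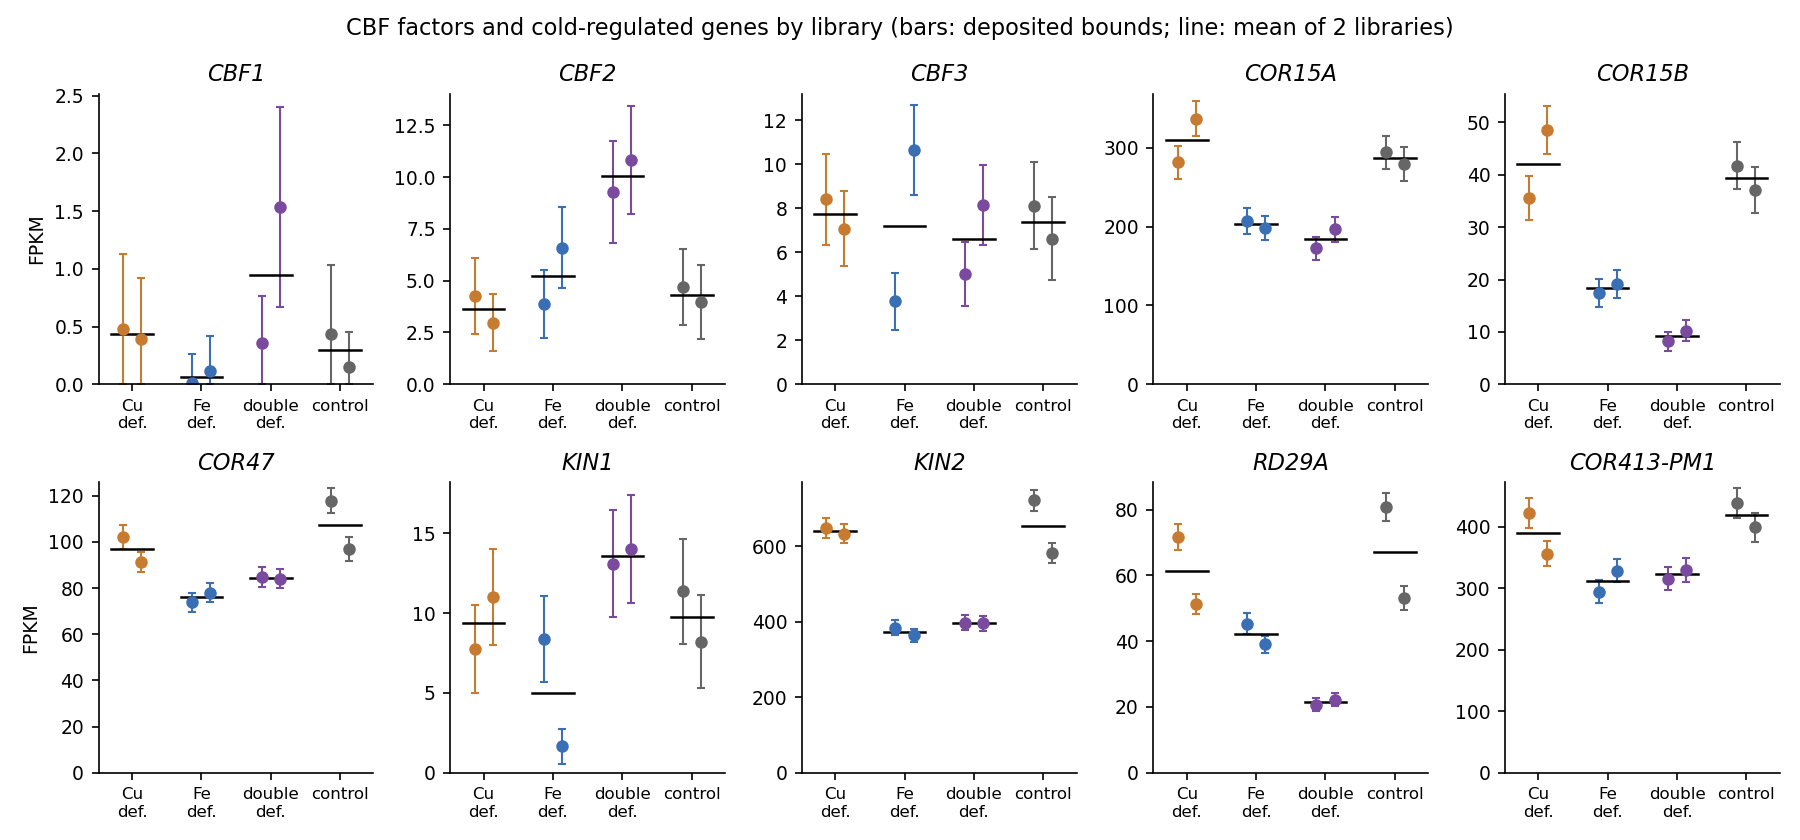
FPKM of the 10 genes by library in copper, iron and double deficiency and control; points are libraries, thin bars the bounds deposited with each value and lines the mean of 2 libraries. COR15B is lowest in double deficiency (8.22 and 10.2 FPKM), and CBF2 highest there (9.29 and 10.8 FPKM).

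The CBF factors were low in all groups, at means over the 8 libraries of 7.22 FPKM for CBF3, 5.81 FPKM for CBF2 and 0.434 FPKM for CBF1. CBF2 (chr4:13015250-13016235, minus strand) stood at 4.24 and 2.98 FPKM in copper deficiency, 3.88 and 6.59 FPKM in iron deficiency and 9.29 and 10.8 FPKM in double deficiency, against 4.69 and 3.96 FPKM in control. Both double-deficient libraries lay above the other 6, while the iron-deficient pair stood on either side of the controls. The rise in double deficiency was 1.05 ± 0.25 on the log2 scale (SE, adjusted p = 0.0165), and the change in iron deficiency 0.20 ± 0.25 (adjusted p = 0.585). The call in double deficiency was lost with median-ratio scaling (0.67, adjusted p = 0.0769) and quantile scaling (0.54, adjusted p = 0.134). It was also lost without double 1 (1.15, adjusted p = 0.0605), without double 2 (0.95, adjusted p = 0.0893) or without control 2 (0.96, adjusted p = 0.0823). Under these 2 scalings the iron change of CBF2 turned negative, at -0.05 and -0.19, and it stood at -0.12 without iron 2. The deposited bounds of CBF2 imply between 18.9 and 68.7 fragments per library.

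CBF3 (chr4:13018010-13019400, minus strand), the most abundant of the trio in copper-deficient and control leaves, read 8.40 and 7.08 FPKM in copper deficiency, 3.76 and 10.6 FPKM in iron deficiency and 5.02 and 8.15 FPKM in double deficiency, against 8.12 and 6.61 FPKM in control. The 2 iron-deficient libraries were thus its lowest and its highest. Its change was -0.16 ± 0.42 in iron deficiency (adjusted p = 0.8) and -0.17 ± 0.42 in double deficiency (adjusted p = 0.775), and neither was called. In iron deficiency it turned to 0.48 without iron 1, and in double deficiency to 0.14 without double 1, with no call (adjusted p = 0.285 and 0.874).

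CBF1 (chr4:13021780-13022996, minus strand) was near the limit of detection and was not tested. It read 0.482 and 0.393 FPKM in copper deficiency, 0.0106 and 0.114 FPKM in iron deficiency and 0.357 and 1.53 FPKM in double deficiency, against 0.436 and 0.151 FPKM in control. The double 2 library alone passed 1 FPKM, and its bounds imply 12.5 fragments, the highest of the 8 libraries. The lower deposited bound was 0 in the other 7 libraries.

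Within the cluster, the share of CBF2 was highest in the 2 double-deficient libraries; shares were not tested. CBF2 made up 32.3 and 28.5% of the summed CBF level in copper deficiency, 50.7 and 38.0% in iron deficiency and 63.3 and 52.8% in double deficiency, against 35.4 and 37.0% in control. The ratio of CBF2 to CBF3 was 0.505 and 0.421 in copper deficiency, 1.03 and 0.619 in iron deficiency and 1.85 and 1.33 in double deficiency, against 0.577 and 0.600 in control. CBF2 therefore stood above CBF3 in both double-deficient libraries and in iron 1, and below it in the other 5. The summed level was 14.7 and 20.5 FPKM in double deficiency, against 13.2 and 10.7 FPKM in control. The coding sequences are alike, with 86.7% identity between CBF2 and CBF3, 86.3% between CBF1 and CBF2 and 85.0% between CBF1 and CBF3. Their transcripts share runs of up to 68 identical bases, so the split of reads among the 3 genes carries some uncertainty.

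COR15A and COR15B encode proteins of the chloroplast stroma that protect inner envelope membranes during freezing, and their loci lie 7 bases apart on chromosome 2. COR15A (chr2:17710441-17712330, minus strand) stood at 282 and 337 FPKM in copper deficiency, 208 and 199 FPKM in iron deficiency and 173 and 197 FPKM in double deficiency, against 295 and 280 FPKM in control. All 4 iron-deficient and double-deficient libraries lay below the controls. It fell by 0.50 ± 0.12 in iron deficiency (SE, adjusted p = 0.0211) and by 0.64 ± 0.12 in double deficiency (adjusted p = 0.00656). The call in double deficiency held in all 19 settings tried. The call in iron deficiency was lost without iron 1 (adjusted p = 0.0607), iron 2 (0.0930), control 1 (0.0943) or control 2 (0.0787), where the change was between -0.53 and -0.46, and after rescaling to nuclear coding genes (-0.31, adjusted p = 0.0600).

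COR15B (chr2:17708593-17710433, minus strand) showed the largest fall of the 9 tested genes in double deficiency. It read 35.5 and 48.6 FPKM in copper deficiency, 17.4 and 19.2 FPKM in iron deficiency and 8.22 and 10.2 FPKM in double deficiency, against 41.7 and 37.0 FPKM in control. The iron-deficient pair and the double-deficient pair overlapped neither each other nor the controls. The change was -1.06 ± 0.18 in iron deficiency (SE, adjusted p = 0.0067) and -1.99 ± 0.18 in double deficiency (adjusted p = 0.000573). Both calls held in all 19 settings, with changes between -1.35 and -0.88 in iron deficiency and between -2.44 and -1.84 in double deficiency.

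COR15B also made up less of the pair in every library of the iron-free groups. Its share of the summed COR15 level was 11.2 and 12.6% in copper deficiency, 7.71 and 8.82% in iron deficiency and 4.54 and 4.94% in double deficiency, against 12.4 and 11.7% in control. The coding sequences of the pair are 75.1% identical, and the longest run their transcripts share is 31 bases. The reference transcript of COR15B is 1584 bases and that of COR15A 657 bases, so an FPKM ratio of the pair depends on the annotated lengths.

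**Figure D2:**
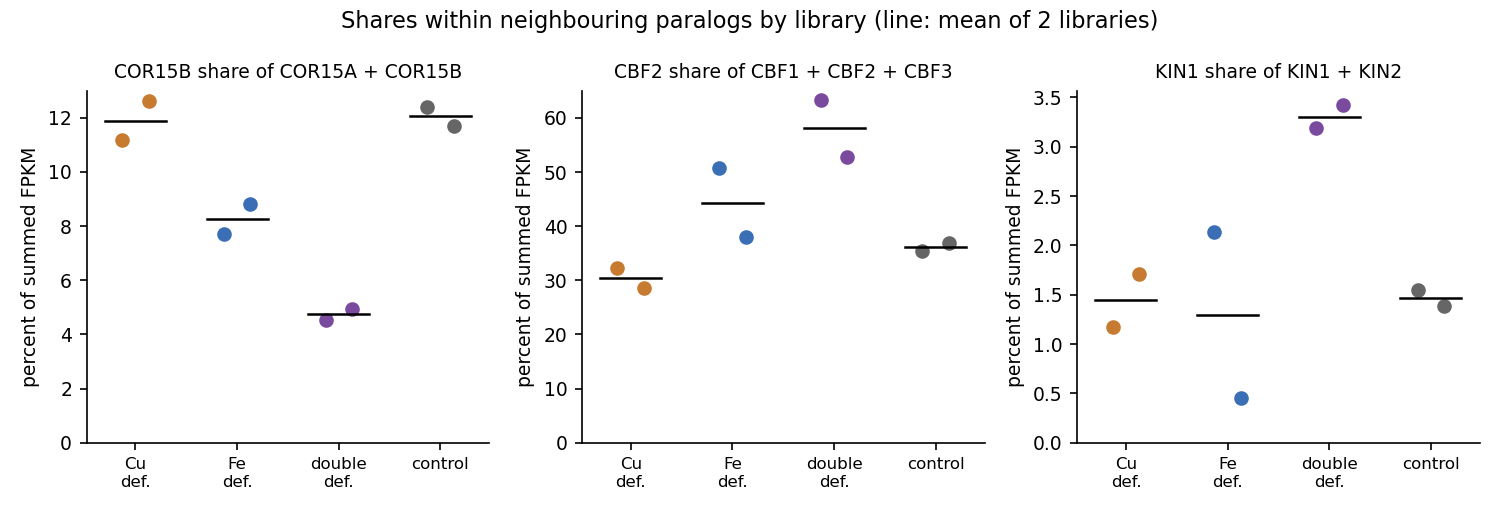
Share of each gene in the summed FPKM of its neighbouring paralogs (percent), by library, in copper, iron and double deficiency and control; points are libraries and lines the mean of 2. The COR15B share is 4.54 and 4.94% in double deficiency against 12.4 and 11.7% in control, and the CBF2 share is highest in double deficiency.

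KIN1 and KIN2 (KIN2 is also called COR6.6) encode nearly identical small hydrophilic proteins and stand 892 bases apart on chromosome 5. Their coding sequences are shown because the reads of the scarce KIN1 have to be told from those of the abundant KIN2. They differ at 10 of 201 bases (95.0% identity), which stand in capitals in the spliced sequences of TAIR10.1, both on the plus strand, from chr5:5209992-5210473 for KIN1 and chr5:5211966-5212441 for KIN2.
KIN1: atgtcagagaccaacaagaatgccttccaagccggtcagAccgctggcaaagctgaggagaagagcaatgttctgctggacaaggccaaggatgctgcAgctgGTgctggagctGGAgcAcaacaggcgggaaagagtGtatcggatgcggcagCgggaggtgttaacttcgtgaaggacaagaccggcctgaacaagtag
KIN2: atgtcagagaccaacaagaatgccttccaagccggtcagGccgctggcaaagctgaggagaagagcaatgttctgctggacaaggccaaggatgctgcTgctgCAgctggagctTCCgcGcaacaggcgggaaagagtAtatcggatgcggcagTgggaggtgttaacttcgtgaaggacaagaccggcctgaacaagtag

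KIN2 (chr5:5211719-5212743, plus strand) was the most abundant of the 10 genes, at a mean of 516 FPKM over the 8 libraries. It stood at 649 and 634 FPKM in copper deficiency, 385 and 364 FPKM in iron deficiency and 398 and 396 FPKM in double deficiency, against 723 and 583 FPKM in control. The 4 libraries without iron lay below the other 4. KIN2 fell by 0.79 ± 0.12 in iron deficiency (SE, adjusted p = 0.00482) and by 0.71 ± 0.12 in double deficiency (adjusted p = 0.00468), and both calls held in all 19 settings.

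KIN1 (chr5:5209717-5210826, plus strand) was far lower, and its values are uncertain because its transcript shares runs of up to 58 bases with that of KIN2. It read 7.73 and 11.01 FPKM in copper deficiency, 8.37 and 1.65 FPKM in iron deficiency and 13.1 and 14.0 FPKM in double deficiency, against 11.4 and 8.21 FPKM in control. The 2 double-deficient values were the highest of the 8, and iron 2 stood apart as the lowest. KIN1 took 3.19 and 3.42% of the summed KIN level in double deficiency, against 1.55 and 1.39% in control. The changes were -1.10 ± 0.55 in iron deficiency (SE, adjusted p = 0.172) and 0.45 ± 0.55 in double deficiency (adjusted p = 0.537), and neither was called. The iron change passed the threshold only without iron 1 (-2.01, adjusted p = 0.0131), where the lone iron 2 value carries it and is assumed to vary like the other groups. The double change turned to -0.07 with quantile scaling.

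RD29A (chr5:21240717-21243644, plus strand), a hydrophilic protein widely used as a marker of CBF and abscisic acid responses, was lowest in double deficiency. It stood at 71.7 and 51.3 FPKM in copper deficiency, 45.4 and 39.0 FPKM in iron deficiency and 20.6 and 22.2 FPKM in double deficiency, against 80.9 and 53.2 FPKM in control. No library of either iron-free group reached the lowest control. RD29A fell by 1.57 ± 0.24 in double deficiency (SE, adjusted p = 0.00307), a call that held in all 19 settings. In iron deficiency the change was -0.63 ± 0.24 (adjusted p = 0.0846) and was not called. It passed the threshold without control 2 (-0.93, adjusted p = 0.0475) and with median-ratio scaling (-0.92, adjusted p = 0.0310).

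COR47 (chr1:7084409-7086873, minus strand) encodes a dehydrin, a hydrophilic protein that protects membranes and proteins as cells lose water. It read 102 and 91.3 FPKM in copper deficiency, 73.8 and 78.0 FPKM in iron deficiency and 84.9 and 84.1 FPKM in double deficiency, against 118 and 96.9 FPKM in control. All 4 values without iron lay under the other 4. It fell by 0.49 ± 0.12 in iron deficiency (SE, adjusted p = 0.0211), and its change in double deficiency, -0.34 ± 0.12, was not called (adjusted p = 0.0555). The iron call was lost without iron 1 (adjusted p = 0.0858), iron 2 (0.0695) or control 1 (0.0890), with changes between -0.53 and -0.35, and after rescaling to nuclear coding genes (-0.30, adjusted p = 0.0872). The double change was called without control 2 (-0.47, adjusted p = 0.0378).

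COR413-PM1 (chr2:6949851-6951192, plus strand) encodes a multi-spanning protein of the plasma membrane and was the second most abundant member, with a mean of 361 FPKM. It stood at 422 and 356 FPKM in copper deficiency, 295 and 328 FPKM in iron deficiency and 316 and 330 FPKM in double deficiency, against 439 and 399 FPKM in control. Values without iron were again the 4 lowest, though the fold between its highest and lowest library was under that of any other member. It fell by 0.43 ± 0.12 in iron deficiency (SE, adjusted p = 0.0343) and by 0.37 ± 0.12 in double deficiency (adjusted p = 0.0421). These were the least stable calls: the iron call held in 9 of 19 settings and the double call in 11. Both were lost after rescaling to nuclear coding genes (-0.24, adjusted p = 0.156, in iron deficiency, and -0.27, adjusted p = 0.112, in double deficiency). Without any 1 of the iron, double or control libraries, the iron change was between -0.51 and -0.35 (adjusted p from 0.0650 to 0.153). Without double 1, double 2, control 1 or control 2 the double change was between -0.44 and -0.31 (adjusted p from 0.0908 to 0.18).

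**Figure D3:**
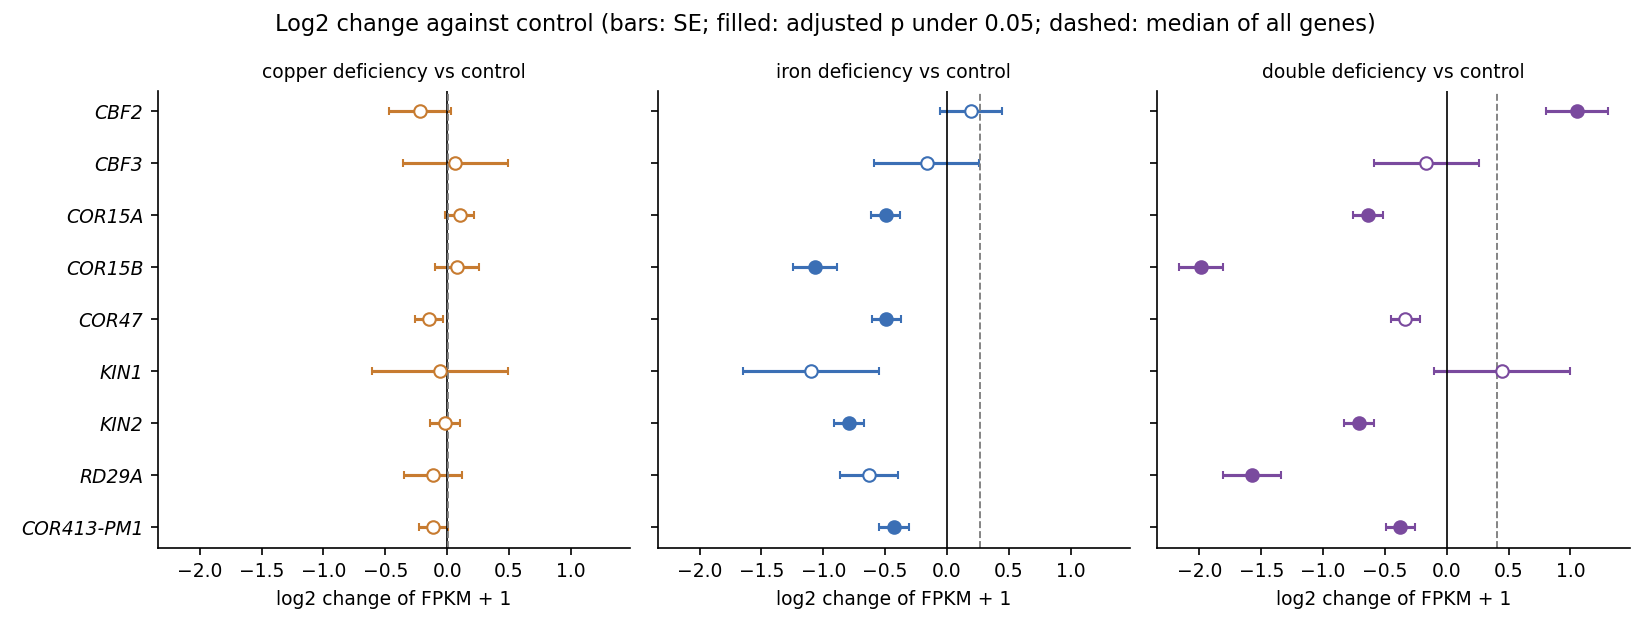
Log2 change of FPKM + 1 against control for the 9 tested genes in copper, iron and double deficiency; points are limma estimates, bars their SE, filled points are called and dashed lines mark the median of all tested entries. No gene is called in copper deficiency, 5 fell in iron deficiency, and in double deficiency 5 fell while CBF2 rose by 1.05.

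Relative to the all-gene median, genes that fell lay further down than against 0, and CBF2 in double deficiency lay less far up. COR15B lay at -1.33 from that median in iron deficiency and at -2.40 in double deficiency, on the log2 scale. RD29A lay at -1.98 and KIN2 at -1.12 relative to the median in double deficiency, and CBF2 at 0.65. In iron deficiency CBF2 lay at -0.07 and CBF3 at -0.43 relative to the median.

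Between double and iron deficiency, limma called none of the 9 genes, where 1.14% of all entries were called in either direction and 4 members had an unadjusted p under 0.05. These 4 were COR15B, RD29A, CBF2 and KIN1. COR15B differed by -0.92 ± 0.18 (SE, adjusted p = 0.0747) and RD29A by -0.94 ± 0.24 (adjusted p = 0.107), and for both the double-deficient libraries lay below the iron-deficient ones. CBF2 differed by 0.86 ± 0.25 (adjusted p = 0.14) and KIN1 by 1.55 ± 0.55 (adjusted p = 0.194), both with the double-deficient libraries above. COR15B passed the threshold with quantile scaling (-1.09, adjusted p = 0.0479), where 0.579% of all entries fell. Another set, nuclear coding genes above 0 in all libraries, was chosen after the data were seen. In it COR15B (adjusted p = 0.0162) and RD29A (adjusted p = 0.0275) were called, where 844 of 16802 entries were called. The main fit called 218 of 19171. KIN2 and COR15A differed little, by 0.08 ± 0.12 (adjusted p = 0.726) and -0.14 ± 0.12 (adjusted p = 0.541). The double-deficient libraries lay above the iron-deficient ones for 4 of the 9 genes, beside 42.6% of all entries, and below for 3, beside 12.9%.

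Between double and copper deficiency, CBF2 rose and 4 COR genes fell, where 39.4% of all entries rose and 6.4% fell. CBF2 rose by 1.27 ± 0.25 (SE, adjusted p = 0.00834), and the call was lost without double 2 (1.17, adjusted p = 0.0551) and with quantile scaling (0.75, adjusted p = 0.0515). COR15B changed by -2.07 ± 0.18 (adjusted p = 0.000487), RD29A by -1.46 ± 0.24 (adjusted p = 0.00391), COR15A by -0.74 ± 0.12 (adjusted p = 0.0038) and KIN2 by -0.69 ± 0.12 (adjusted p = 0.00503). These 4 falls held in all 19 settings. COR47 (-0.19, adjusted p = 0.225) and COR413-PM1 (-0.26, adjusted p = 0.115) were not called. Both fell with median-ratio scaling (-0.64, adjusted p = 0.00427, and -0.72, adjusted p = 0.00461). Both also fell with quantile scaling (-0.52, adjusted p = 0.00986, and -0.45, adjusted p = 0.00854), and each scaling gave 6 falls. Of all entries, 16.3% fell with median ratios and 18.4% with quantiles.

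The interaction asks whether the change in double deficiency differs from the sum of the 2 single changes. It was called by limma for 0 of the 9 genes, where 0.589% of all entries were called in either direction, and 3 members had an unadjusted p under 0.05. These 3 were CBF2, at 1.08 ± 0.36 (SE, adjusted p = 0.289), COR15B, at -1.0 ± 0.25 (adjusted p = 0.201), and RD29A, at -0.83 ± 0.33 (adjusted p = 0.359). Each of these kept its sign in all settings tried, and none was called in any of them.

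Other genes of cold and abscisic acid signalling were read from 5 lists of known genes, 70 in all, of which 65 were tested. In copper deficiency limma called 0 of the 65, with 3 at an unadjusted p under 0.05. In iron deficiency 28 rose and 8 fell, or 43.1 and 12.3% of the 65, beside 27.2 and 6.85% of all entries. In double deficiency 28 rose and 7 fell, or 43.1 and 10.8%, beside 39.2 and 5.99% of all entries. Among the rises in both groups are 3 DREB2 genes that passed the filter only through the iron-free groups. The lists were also chosen with earlier results of these data known, so the shares that rose cannot be set squarely against all entries. The split depends on the scaling: with median ratios 14 rose and 15 fell in iron deficiency and 16 rose and 18 fell in double deficiency, and with quantiles 16 rose and 14 fell, and 17 rose and 19 fell. Beside these, 14.6 and 14.5% of all entries rose and fell in iron deficiency with median ratios and 13.8 and 14.1% with quantiles. In double deficiency the shares were 16.6 and 15.2% with median ratios and 15.6 and 17.3% with quantiles. Without 1 library at a time the number called was between 16 (without control 2) and 36 in iron deficiency, with 18 without iron 2 or control 1, and between 25 and 36 in double deficiency. Lists are given by counts and medians beside the all-gene medians of 0.27 and 0.41.

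Among 21 regulators that act upstream of the CBF genes, 10 rose and 0 fell in iron deficiency (median 0.36), and 10 rose and 1, PIF4, fell in double deficiency (median 0.50). In iron deficiency 47.6% of the list rose, beside 27.2% of all entries, and in double deficiency 47.6%, beside 39.2%. The shares that fell were 0 and 4.76% in the same order, beside 6.85 and 5.99% of all entries. With median-ratio scaling 4 rose and 2 fell in iron deficiency, where 14.6% of all entries rose and 14.5% fell. With the same scaling 3 rose and 4 fell in double deficiency, where 16.6% of all entries rose and 15.2% fell. The rises of HOS1, HOS15, OST1 and CAMTA3 were lost in both groups under median-ratio and quantile scaling. The clock genes LHY, CCA1 and PRR5 changed most, and their rises were called under both scalings. LHY, a morning transcription factor that activates CBF genes together with CCA1, averaged 30.6 ± 2.46 FPKM in iron deficiency and 36.0 ± 0.446 FPKM in double deficiency, against 4.62 ± 0.266 FPKM in control (SD, n = 2 each). Its log2 change was 2.49 ± 0.10 in iron deficiency (SE, adjusted p = 4.52e-05) and 2.72 ± 0.10 in double deficiency (adjusted p = 2.66e-05). CCA1 rose by 1.53 ± 0.14 (adjusted p = 0.000843) and 1.57 ± 0.14 (adjusted p = 0.000501) in iron and double deficiency. PRR5, a clock repressor, rose by 1.23 ± 0.23 (adjusted p = 0.00957) and 1.59 ± 0.23 (adjusted p = 0.00273) in the same order. ICE1, the activator best known for the cold induction of CBF3, averaged 23.8 ± 4.60 FPKM in iron deficiency and 28.1 ± 0.788 FPKM in double deficiency, against 21.6 ± 3.32 FPKM in control (SD, n = 2 each), and was not called in either. Without double 1, double 2, control 1 or control 2 the PIF4 call was lost (adjusted p from 0.0987 to 0.118), and without iron 2 that of PRR5 in iron deficiency (1.12, adjusted p = 0.0590).

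DREB2 factors bind the same element in drought and heat responses. The 3 tested of 6 relatives rose in both iron-free groups. All 3 reached the minimum level only through these groups, and outside them only DREB2A in control 2 passed 1 FPKM (1.07). The filter thus favoured relatives that rise, so their share cannot be set against all entries (27.2% rose in iron deficiency and 39.2% in double deficiency). DREB2C read 4.61 and 6.17 FPKM in iron deficiency and 8.03 and 6.45 FPKM in double deficiency, against 0.0288 and 0.236 FPKM in control. Its log2 change was 2.49 ± 0.22 in iron deficiency (SE, adjusted p = 0.000866) and 2.86 ± 0.22 in double deficiency (adjusted p = 0.000372). DREB2B stood at 1.55 and 1.15 FPKM in iron deficiency and 2.90 and 2.95 FPKM in double deficiency, and was listed at 0 in the copper-deficient and control libraries. DREB2A, the best studied of these, rose by 0.99 ± 0.20 (adjusted p = 0.0124) in iron deficiency and by 1.03 ± 0.20 (adjusted p = 0.00783) in double deficiency. Its calls were lost with quantile scaling (0.67 and 0.55, adjusted p = 0.0753 and 0.117), and its iron call also without iron 1 (0.84, adjusted p = 0.0519) or control 1 (0.88, adjusted p = 0.0522).

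Of 13 transcription factors that respond to cold alongside the CBF genes, 4 rose and 0 fell in iron deficiency (median 0.03), and 8 rose and 1, HSFC1, fell in double deficiency (median 0.97). The share that rose in iron deficiency, 30.8%, was close to the 27.2% of all entries, while in double deficiency 61.5% rose, beside 39.2%. Falls took 0 and 7.69% of the list in the same order, beside 6.85 and 5.99% of all entries. With median-ratio scaling 3 rose and 2 fell in iron deficiency (median -0.16), and 7 rose and 1 fell in double deficiency (median 0.55). All entries then rose and fell in 14.6 and 14.5% of cases in iron deficiency and in 16.6 and 15.2% in double deficiency. ZAT12, a zinc finger protein also induced by oxidative stress and high light, stood at 24.4 and 28.4 FPKM in iron deficiency and 75.3 and 81.2 FPKM in double deficiency, against 2.72 and 2.40 FPKM in control. Its change was 2.94 ± 0.13 in iron deficiency (SE, adjusted p = 5.89e-05) and 4.48 ± 0.13 in double deficiency (adjusted p = 1e-05). ZAT10, a related zinc finger protein, read 8.44 and 11.1 FPKM in iron deficiency and 45.2 and 41.4 FPKM in double deficiency, against 4.41 and 3.70 FPKM in control. Between double and iron deficiency, where 1.14% of all entries were called in either direction, 5 of these 13 rose, among them ZAT10 by 2.05 ± 0.17 (adjusted p = 0.00571), ERF6 by 1.65 ± 0.20 (adjusted p = 0.0217) and ERF5 by 1.57 ± 0.23 (adjusted p = 0.0410), both ethylene response factors. Without double 1 or double 2, 0 list genes were called in that comparison, without iron 1 there was 1, and without iron 2 there were 3. The ERF5 call held in 6 of 19 settings, the ERF6 call in 11 and the ZAT10 call in 16. ERF5 was not called with median-ratio scaling (1.41, adjusted p = 0.0681) or quantile scaling (1.41, adjusted p = 0.0585). It was also lost with no filter, with 5 FPKM in 2 libraries, with the replicate block and without control 1 or control 2. With no filter, 5 FPKM, the replicate block or only the groups compared, ERF6 was lost as well. The HSFC1 call was lost without double 1, double 2, control 1 or control 2 (adjusted p from 0.0819 to 0.105).

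Other cold-responsive targets went both ways. Of 15 tested out of 17, 4 rose and 6 fell in iron deficiency (median -0.28), and 2 rose and 3 fell in double deficiency (median -0.20). In iron deficiency 26.7% rose and 40.0% fell, beside 27.2 and 6.85% of all entries, and in double deficiency 13.3% rose and 20.0% fell, beside 39.2 and 5.99%. With median-ratio scaling 16 were tested, and 0 rose and 8 fell in iron deficiency, and 2 rose and 9 fell in double deficiency. The shares of all entries that rose and fell were then 14.6 and 14.5% in iron deficiency and 16.6 and 15.2% in double deficiency. With quantile scaling 4 rose and 6 fell in iron deficiency and 2 rose and 8 fell in double deficiency. All entries then rose and fell in 13.8 and 14.1% of cases and in 15.6 and 17.3%. After rescaling to nuclear coding genes the list counts were 4 and 3, and 2 and 3. Beside these, 41.1 and 5.03%, and 47.6 and 5.15%, of all entries rose and fell. COR413IM1, the inner chloroplast envelope relative of COR413-PM1, read 19.0 and 19.8 FPKM in iron deficiency and 12.0 and 7.84 FPKM in double deficiency, against 133 and 114 FPKM in control. Its change was -2.60 ± 0.20 in iron deficiency (SE, adjusted p = 0.00048) and -3.53 ± 0.20 in double deficiency (adjusted p = 0.00012), a larger estimate than that of any of the 9 tested members. ERD10, a dehydrin like COR47, fell by 1.82 ± 0.13 (adjusted p = 0.000396) in iron deficiency and by 1.45 ± 0.13 (adjusted p = 0.000611) in double deficiency. GOLS3, a galactinol synthase induced by cold, fell by 1.49 ± 0.13 (adjusted p = 0.00072) in iron deficiency and by 1.72 ± 0.13 (adjusted p = 0.000304) in double deficiency. Of the 4 that rose in iron deficiency, GOLS2 rose by 0.86 (adjusted p = 0.0149) and GRP8 by 0.75 (adjusted p = 0.0243). GRP7 rose by 0.58 (adjusted p = 0.0227) and BAM3 by 0.54 (adjusted p = 0.0124). GRP8 (1.02, adjusted p = 0.00634) and BAM3 (0.79, adjusted p = 0.00236) also rose in double deficiency.

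The 13 genes of abscisic acid synthesis, signalling and response were mixed too. In iron deficiency 7 rose and 2 fell (median 0.49), and in double deficiency 5 rose and 2 fell (median -0.17). In iron deficiency 53.8% rose, beside 27.2% of all entries, and in double deficiency 38.5%, beside 39.2%. In each group 15.4% of the list fell, beside 6.85 and 5.99% of all entries in the same order. With median-ratio scaling 4 rose and 3 fell in iron deficiency, and 1 rose and 4 fell in double deficiency. Under that scaling 14.6% of all entries rose and 14.5% fell in iron deficiency, and 16.6% rose and 15.2% fell in double deficiency. The rises of ABF3, ABF4, ABI1 and ABI2 in double deficiency were lost under both median-ratio and quantile scaling (adjusted p from 0.106 to 0.963), which left HAB1, and ABF4 turned to -0.04 with quantiles. HAB1, a phosphatase that restrains the hormone's signalling, rose by 1.21 ± 0.11 (SE, adjusted p = 0.00105) in iron deficiency and by 0.96 ± 0.11 (adjusted p = 0.00139) in double deficiency. ABF3, a bZIP factor that binds ACGTG elements, rose by 1.05 ± 0.16 (adjusted p = 0.00473) in iron deficiency. NCED3, which catalyses the committed step of the hormone's synthesis, fell by 1.19 ± 0.22 (adjusted p = 0.00703) in double deficiency.

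**Figure D4:**
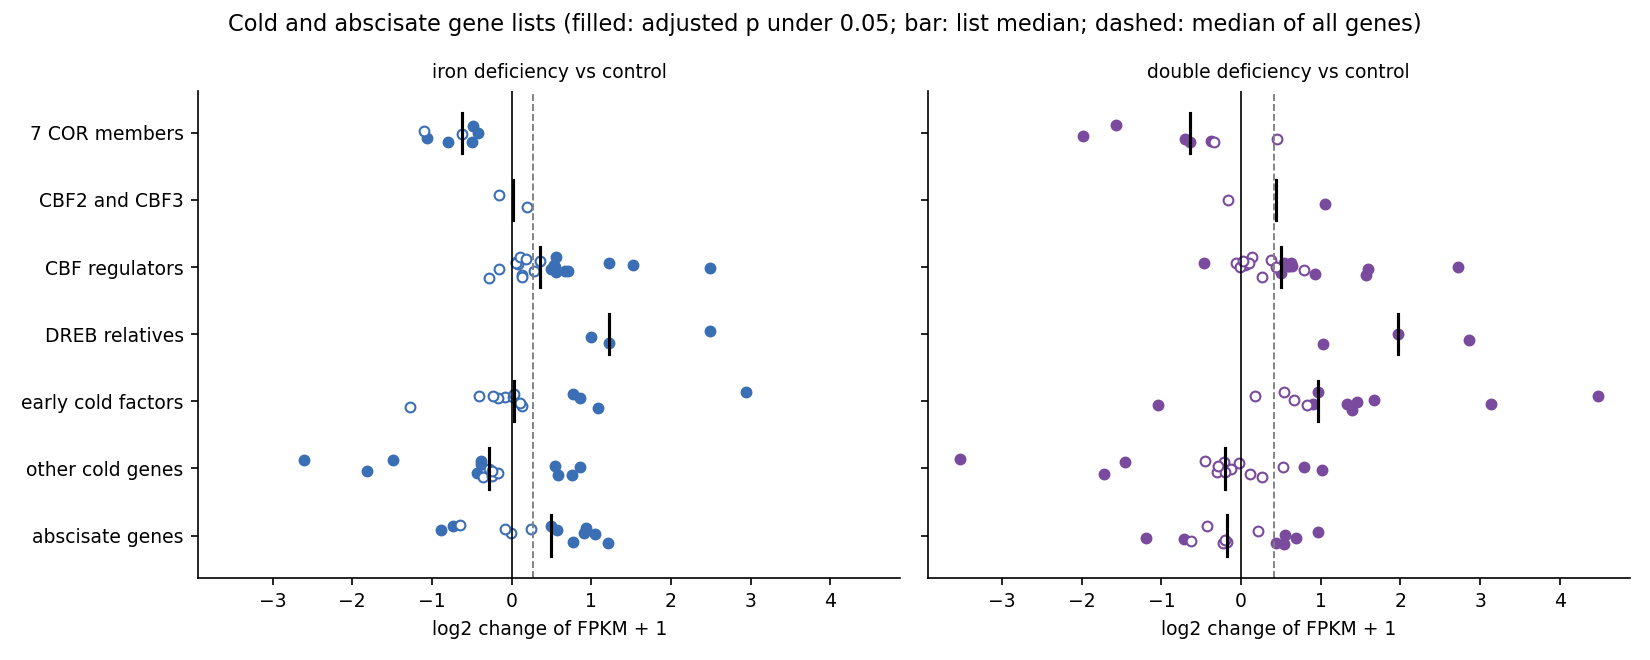
Log2 change of FPKM + 1 against control in iron and double deficiency, for the 7 COR genes, CBF2 and CBF3, and the tested genes of 5 cold and abscisic acid lists. Points are genes, filled where called, short bars the medians of each row and dashed lines the median of all tested entries. The early cold transcription factors have a median of 0.97 in double deficiency and 0.03 in iron deficiency, the second turning to -0.16 with median-ratio scaling.

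The nuclear coding genes whose profile over the 8 libraries was most like the mean profile of the 7 COR genes, among 16793 candidates, were AT2G24580 (Pearson r 0.987), FER1 (0.982), AT4G33490 (0.979), ICS2 (0.979) and AT1G10090 (0.977). FER1 encodes a chloroplast ferritin, the iron storage protein, and stood at 75.7 and 54.3 FPKM in copper deficiency, 6.36 and 7.87 FPKM in iron deficiency and 8.64 and 7.82 FPKM in double deficiency, against 92.4 and 59.3 FPKM in control. Those most like the mean CBF profile were PTAC18 (0.947), AT1G27200 (0.940), AT5G59350 (0.940), GATL5 (0.932) and AT4G23860 (0.929). In that mean CBF1, near the limit of detection, weighs as much as CBF2 and CBF3. Each of these genes was highest in double 2, the only library where CBF1 passed 1 FPKM. The points are 4 pairs of libraries that share treatments and scaling, so these values are descriptions of the 8 libraries.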

How the data were processed

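The authors deposited FPKM per gene and library with a lower and upper bound, per the file headers. Reads had been handled with Trimmomatic, TopHat2 2.1.1, Cufflinks and Cuffdiff, per the submitters' processing notes; no source used here names the build or annotation. Libraries were unstranded, per the labels, so overlapping transcripts of opposite strands cannot be told apart. Log2(FPKM + 1) of entries with at least 1 FPKM in at least 2 libraries was fitted with limma 3.58.1 (lmFit, eBayes with trend) in R 4.3.3, with 4 residual degrees of freedom. The fit was tested on simulated data. Errors of FPKM are SD and errors of log2 changes SE. Replicate values were not identical in any group. Same-numbered libraries did not deviate together (correlations from -0.039 to 0.024), so no block was used. The sample titles also carry letters, B and C in copper deficiency but A and B in the other groups. Pairing by letter was not examined. Motifs and sequences came from the TAIR10.1 genome, read with Python 3.11.15, and coding sequences were aligned with Biopython 1.88. Implied fragments are the squared ratio of a value to the SD that its bounds give.

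The members and lists were chosen with earlier results of these data known. Named list genes are mostly the 3 called genes with the largest absolute change per list and comparison. ICE1, PIF4, HSFC1 and, from the most alike genes, FER1 were singled out after their values were seen. The same holds for the 4 other cold targets named as rising in iron deficiency. Alternatives were pseudocounts of 0.1 and 0.5, no filter or 5 FPKM, 3 scalings, no trend, a replicate block, fewer groups, each library left out, and a gene set added after the data were seen.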

Additional observations from a re-analysis of the deposited data

Results flagged for a closer look

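ZAT12, a zinc finger factor of the cold response list, had an interaction of 1.82 ± 0.19 on the log2 scale (SE, limma adjusted p = 0.0148): its rise with loss of iron was larger without copper than with it. ZAT10 had an interaction of 2.06 ± 0.24 (limma adjusted p = 0.0280) in the same direction. In both genes the 2 double-deficient libraries lay above the 2 iron-deficient ones, as they did for 42.6% of all entries. The ZAT12 call was lost without iron 1, double 1, double 2, control 1 or control 2 (adjusted p from 0.0517 to 0.11). The ZAT10 call was lost without copper 2 or any 1 of the iron, double and control libraries (adjusted p from 0.0516 to 0.167). The cause was not tested.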

How the results depend on the processing

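Over 19 settings, COR15B and KIN2 fell in both iron and double deficiency in every one, as did COR15A and RD29A in double deficiency. Members called in iron deficiency numbered 2 after rescaling to nuclear coding genes, 3 with only the groups compared in the fit and 2 to 5 without 1 library at a time. Between double and iron deficiency, members called numbered 1 with quantile scaling and 2 among nuclear coding genes above 0 in all libraries. That set was chosen after the data were seen. All entries called in these settings were 241 of 19171 and 844 of 16802, against 218 of 19171 in the main fit. In iron deficiency they were 8843 of 19188 after rescaling to nuclear coding genes, against 6532 of 19171.

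With median-ratio scaling 14 list genes rose and 15 fell in iron deficiency and 16 rose and 18 fell in double deficiency, and with quantile scaling 16 rose and 14 fell, and 17 rose and 19 fell, in the same order. Between double and copper deficiency 15 rose and 21 fell with median ratios and 15 rose and 19 fell with quantiles, where 27 rose and 10 fell as deposited. Of all entries, 16.8 and 16.3% rose and fell with median ratios, 15.9 and 18.4% with quantiles and 39.4 and 6.4% as deposited. All-entry calls moved with the setting too. In iron deficiency they were 4488 with only the groups compared, against 6532 in the main fit. Between double and iron deficiency they were 194 with no filter, 167 with 5 FPKM and 133 with the replicate block, against 218. They were 81 with only the groups compared and 844 among nuclear coding genes above 0. For the interaction they were 110 with no filter, 68 with the replicate block and 139 in that gene set, against 113. List genes called in iron deficiency numbered 23 with only the groups compared and 16 to 36 without 1 library at a time, and between double and copper deficiency 22 to 36. Between double and iron deficiency they numbered 3 with no filter, 3 with 5 FPKM in 2 libraries, 3 with the replicate block, 0 with only the groups compared, 11 among nuclear coding genes above 0, and 0 to 5 without 1 library at a time. For the interaction they numbered 1 with no filter, 1 with the replicate block, 5 among nuclear coding genes above 0, and 0 to 2 without 1 library at a time.

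Some changes turned their sign, none of them called among the members. With median-ratio scaling CBF2 in iron deficiency stood at -0.0501 and KIN2 in double against iron deficiency at -0.0653. With quantile scaling these were -0.188 and -0.142, KIN1 in double deficiency stood at -0.0719 and ABF4, a called list gene, at -0.0439. Rescaling to nuclear coding genes put CBF3 in iron deficiency at 0.0012. Without 1 library at a time, changes in copper deficiency ran from -0.0661 to 0.195 for CBF3, -0.0270 to 0.231 for COR15A, -0.143 to 0.299 for COR15B, -0.290 to 0.170 for KIN1, -0.172 to 0.138 for KIN2, -0.410 to 0.186 for RD29A and -0.233 to 0.0124 for COR413-PM1. CBF2 in iron deficiency ran from -0.123 to 0.514, CBF3 in iron deficiency from -0.806 to 0.484 and CBF3 in double deficiency from -0.468 to 0.135. The cause was not tested.

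The replicate numbers are shared by name only. A replicate block gave 6 members called in iron deficiency, with RD29A added (adjusted p = 0.0473). In double deficiency it gave 5, with COR413-PM1 lost (adjusted p = 0.0532). Of all 19171 entries it called 6392 in iron and 8526 in double deficiency, against 6532 and 8654 in the main fit. With 2 libraries a group, and few fragments behind CBF1, CBF2, CBF3 and KIN1, the standard errors of log2 changes were widest for CBF3, at 0.42, and KIN1, at 0.55.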
